A study of Homo sapiens with 16 samples.

Results

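The regions described are the exon-level probe sets whose only gene symbol is COL12A1, TRIO, GABBR1, ABCA13 or ANK2, on whole-transcript arrays of L1236, a long-established cell line from a human Hodgkin lymphoma. A probe set is a small group of array probes that reads an exon or a piece of an exon. The rule found 309 probe sets of 257430: 65 of COL12A1, 61 of TRIO, 73 of GABBR1, 59 of ABCA13 and 51 of ANK2. The cells had been infected with a retrovirus carrying an shRNA against RELB, an NF-kappaB subunit. Arrays labelled induced came from infected cells given doxycycline to switch the shRNA on, and arrays labelled uninduced came from infected cells without it. Each label had 4 arrays, 1 for each combination of a code, B_1 or B_4, and a last number, 1 or 4. The meaning of the code and of the number is not given in the sources used here, and no label says whether each array had a culture of its own, so the spread behind every p-value may be technical. Nor is a line without the virus or with another shRNA among the samples used here, so an effect of doxycycline itself cannot be told apart from that of the shRNA, and the infection is shared by both groups.

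These genes were chosen for the uneven label difference of their probe sets, in a test of exon usage by label on these same arrays. The label differences below are therefore given as a description, without a test. In the exon usage test the order of the genes was COL12A1, TRIO, GABBR1, ABCA13, INADL, ANK2, MYOF and LRP1; ANK2, the last of those described, had F = 36.1 over 50 probe sets, and MYOF, the next after it, had F = 29.6 over 54. INADL, ahead of ANK2 in this order, is not among the genes described. The label itself was not borne out by its target. RELB averaged 7.25 ± 0.11 log2 units in arrays labelled induced and 7.40 ± 0.13 in arrays labelled uninduced (SD, n = 4 each), and the two-sided exact permutation test gave p = 0.171, where the smallest p this design allows is 0.0286. The mean of the 11 RELB exon-level probe sets gave p = 0.286 in the same exact permutation test. The groups are called by their labels throughout for that reason.

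Of 11 measured Hodgkin and B-lineage markers, 10 could be tested with limma, and 5 were higher and 2 lower in arrays labelled induced, against 27.1% higher and 28.3% lower of all 13813 tested genes at an adjusted p under 0.05. TNFRSF8, which encodes the Hodgkin antigen CD30, averaged 11.6 log2 units in arrays labelled induced and 6.89 in arrays labelled uninduced. CD79A, a B-cell receptor component, averaged 11.04 in arrays labelled induced and 5.73 in arrays labelled uninduced, whereas MS4A1, which encodes CD20, was low at 4.52 in arrays labelled induced and 4.49 in arrays labelled uninduced. The 2 lower ones were CD40, a receptor of the TNF family, at 7.48 in arrays labelled induced and 9.21 in arrays labelled uninduced, and FSCN1, the actin bundler fascin, at 6.91 in arrays labelled induced and 8.75 in arrays labelled uninduced. The mean over the 11 markers ran from 8.53 to 8.86 on arrays labelled induced and from 7.50 to 7.60 on arrays labelled uninduced. How far this difference in markers goes with the differences below was not tested.

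The products of these genes act in different places. COL12A1 encodes the chain of collagen XII, a collagen that binds along collagen I fibrils in dense connective tissue. TRIO is a large guanine nucleotide exchange factor, with separate exchange domains that act on RAC1 and RHOG and on RHOA, and it carries spectrin repeats on its amino-terminal side. GABBR1 is the GABA-binding subunit of the GABA-B receptor and is known for alternative promoters that give receptor forms with different amino-terminal ends. ABCA13 is a very large lipid-transporter-like member of the ABCA subfamily. ANK2 encodes ankyrin-B, which ties membrane channels and transporters to the spectrin skeleton and is known for many transcript forms that start or splice differently.

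The stretch of 250 bases before each RefSeq start is shown because a difference that covers a whole gene and one that begins inside it are read against this start. All 5 genes matched the RefSeq table of GRCh38.p14, and each line reads 5′ to 3′ on the gene's own strand. Capitals mark GC boxes (GGGCGG on either strand) and, in ANK2, a match to the NF-kappaB consensus.
COL12A1, chr6:75206054-75206303, minus strand: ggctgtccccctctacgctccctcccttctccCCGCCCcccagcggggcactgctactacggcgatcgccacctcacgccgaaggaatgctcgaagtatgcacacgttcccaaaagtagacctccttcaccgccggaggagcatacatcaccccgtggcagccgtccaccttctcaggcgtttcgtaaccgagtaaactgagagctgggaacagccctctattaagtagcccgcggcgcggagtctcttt
TRIO, chr5:14143092-14143341, plus strand: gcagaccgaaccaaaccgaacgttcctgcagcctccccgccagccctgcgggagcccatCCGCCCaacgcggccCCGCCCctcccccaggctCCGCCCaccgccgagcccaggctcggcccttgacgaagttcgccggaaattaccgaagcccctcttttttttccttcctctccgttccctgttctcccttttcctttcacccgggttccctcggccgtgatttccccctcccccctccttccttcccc
GABBR1, chr6:29628014-29628263, minus strand: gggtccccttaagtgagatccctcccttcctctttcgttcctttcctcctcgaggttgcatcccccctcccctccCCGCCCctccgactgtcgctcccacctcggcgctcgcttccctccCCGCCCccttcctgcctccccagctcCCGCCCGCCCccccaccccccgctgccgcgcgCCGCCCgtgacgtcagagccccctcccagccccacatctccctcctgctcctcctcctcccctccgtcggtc
ABCA13, chr7:48171208-48171457, plus strand: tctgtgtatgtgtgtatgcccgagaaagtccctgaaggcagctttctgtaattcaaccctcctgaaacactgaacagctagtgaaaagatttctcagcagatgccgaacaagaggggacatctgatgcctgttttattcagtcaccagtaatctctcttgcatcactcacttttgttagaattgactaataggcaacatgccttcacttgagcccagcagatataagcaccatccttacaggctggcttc
ANK2, chr4:112705372-112705621, plus strand: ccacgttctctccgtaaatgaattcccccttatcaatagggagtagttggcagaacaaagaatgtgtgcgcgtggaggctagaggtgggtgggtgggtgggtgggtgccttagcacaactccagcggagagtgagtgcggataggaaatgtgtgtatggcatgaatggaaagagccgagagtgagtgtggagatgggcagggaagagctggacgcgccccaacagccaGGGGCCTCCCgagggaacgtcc
The windows differed in base composition. COL12A1, TRIO and GABBR1 held 21, 21 and 20 CpG pairs, ANK2 held 11 and ABCA13 held 2. GC boxes were found 1 time in COL12A1, 3 times in TRIO and 5 times in GABBR1, where a pair of them overlap, and this motif occurs in 42.6% of 35116 windows of the same length. ANK2 had a single place that matched the NF-kappaB consensus on both strands, a motif found in 9.96% of windows, and no window held TATAAA on either strand, which 10.7% of windows do. Of all windows, 52.2% hold 10 or more CpG pairs, so ABCA13 is the only window of the 5 below that number.

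The deposited tables give no position for a probe set, so its place was taken from the order of the identifiers. Over 33 transcript groups that hold 2 genes, identifiers followed rising RefSeq coordinates in 20 of 20 on the plus strand and in 12 of 13 on the minus strand. Identifiers of COL12A1 and GABBR1, both on the minus strand, were therefore read backwards, so that position 1 is the probe set nearest the annotated start of each gene. Position counts probe sets, not exons, and the probe sets of an exon were not joined. GABBR1 had 3 groups of identifiers, with 29, 23 and 21 probe sets, and 41 of the 44 outside the first group had values identical to those of a probe set in it on all 8 arrays. The first group is described here, which leaves 265 probe sets of the 5 genes. When such copies entered the exon usage test a single time, GABBR1 was at place 68 in the order of genes instead of the third. A further 2 probe sets carried the symbols of both UBD and GABBR1 and were left out.

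Most of these probe sets were lower in arrays labelled induced. A difference of at least 1 log2 unit, a doubling, was seen downward at 196 of the 265 and upward at 5, against 9.84% downward and 8.84% upward of all 257430 probe sets. The 4 arrays of each label did not overlap at 214 of the 265, against 29.9% of all probe sets. Since the genes were chosen on this contrast, nothing is read from these counts. The 5 genes fell into 3 patterns. COL12A1, GABBR1 and ANK2 had a start side alike on average in the groups and an end side lower in arrays labelled induced. TRIO had a start side higher and an end side lower. ABCA13 was lower along its whole length. Of the 309 probe sets, 294 passed the filter on low values used for the tests below and 15 did not.

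**Figure D1:**
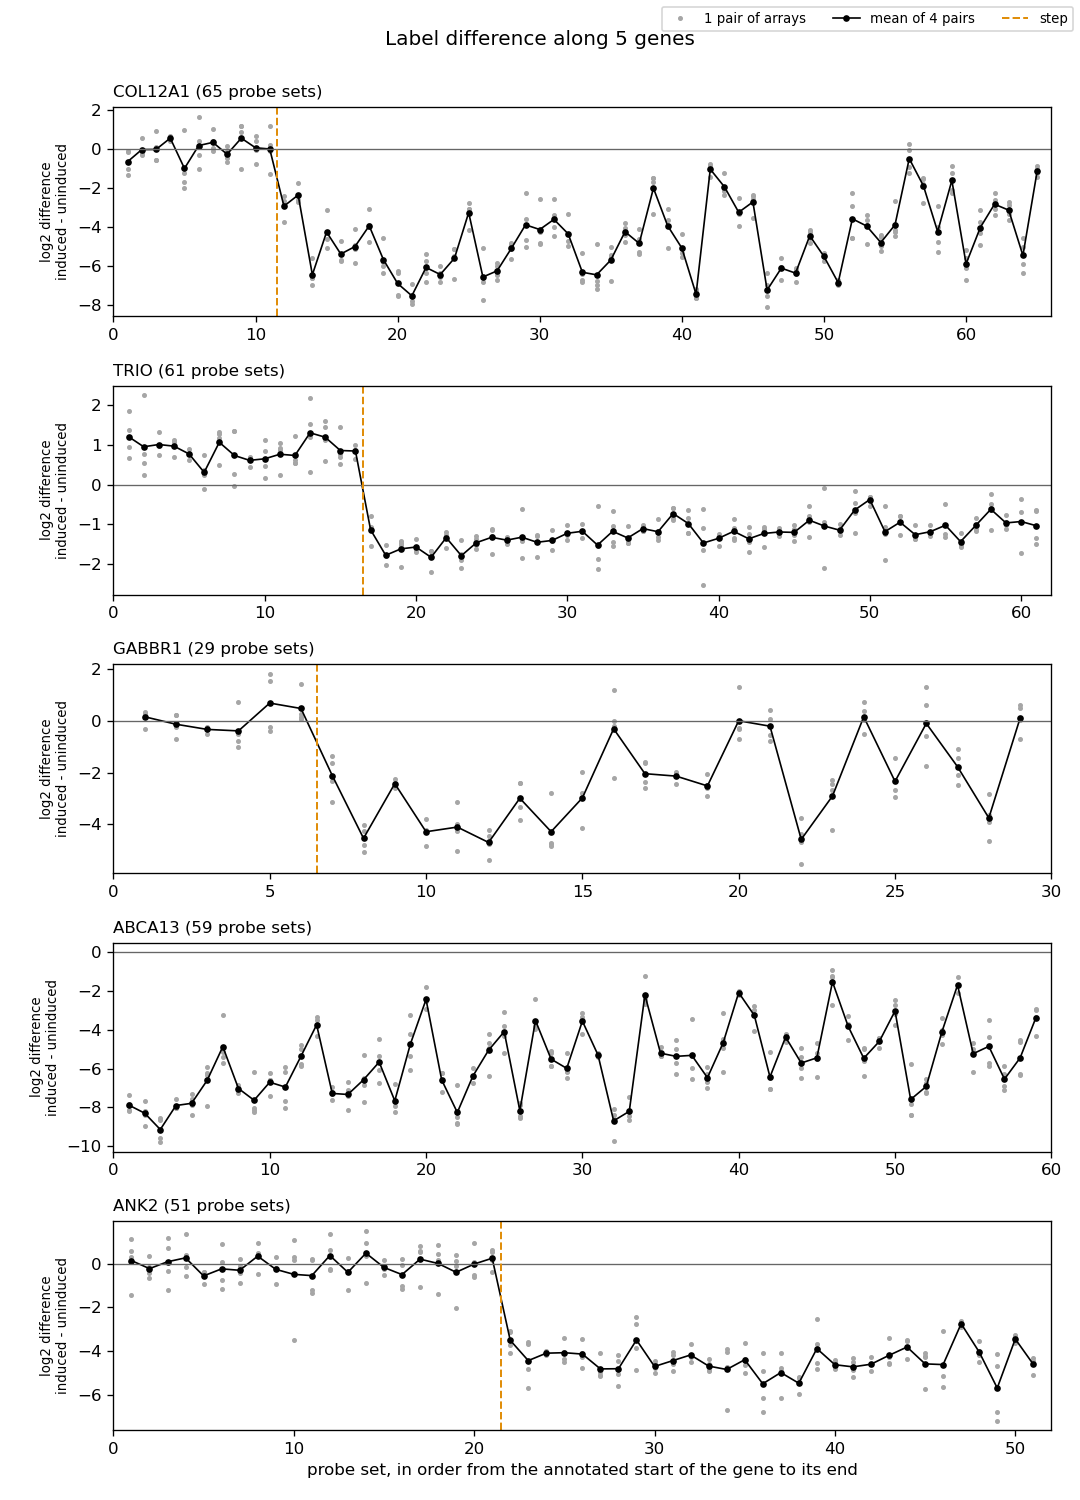
Log2 difference, arrays labelled induced minus uninduced, against the order of probe sets from the annotated start of each gene; grey points are the 4 pairs of arrays that share a code and a number, black points their mean, and the dashed line the step. The split into 2 stretches fell after positions 11, 16, 6 and 21 of COL12A1, TRIO, GABBR1 and ANK2, past which several positions of GABBR1 return to near 0, and the difference is below 0 at all 59 positions of ABCA13.

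The place of the drop was found as the split of the ordered differences into 2 stretches that leaves the least variation within them. It was also found in each pair of arrays that share a code and a number. Such arrays did not deviate together, so these pairs are a matching for description and not paired replicates. A background level was set at 5.25 log2 units, the 90th percentile of 512 probe sets of olfactory receptor genes, which are taken as mostly silent in such a line. By that measure 8 of the 265 probe sets were at background in both groups: 5 of COL12A1, 2 of GABBR1 and 1 of ANK2. TRIO and ABCA13 had 0. A value under this level is dim and not a proof that no transcript was there. Where a group lies under it, the fold is given as a lower bound, with every array value under the level set at the level.

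In COL12A1 the groups overlapped at the first 11 probe sets, and the other 54 were lower in arrays labelled induced. Over positions 1 to 11 the mean was 4.85, 5.21, 4.49 and 4.78 log2 units on the arrays labelled induced and 4.76, 5.21, 4.63 and 4.91 on the arrays labelled uninduced. The ranges of the 2 sets of arrays overlap, and the difference of the means was -0.04. Over positions 12 to 65 the mean was 4.16, 4.20, 4.34 and 4.40 on arrays labelled induced and 8.58, 8.54, 9.10 and 8.99 on arrays labelled uninduced, a gap of more than 4 log2 units between the nearest arrays. The difference of the means was -4.53, with an SD of 0.19 over the 4 pairs of arrays, and arrays labelled induced were at least 9.69-fold lower. The drop was placed after position 11 in 2 pairs and after position 13 in the other 2. The split after position 11 held 52.3% of the variation between positions.

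On the sides of the step of COL12A1, neighbouring probe sets behaved differently. Position 11 read 8.20, 7.91, 5.70 and 7.11 on arrays labelled induced and 7.07, 7.70, 7.02 and 7.21 on arrays labelled uninduced, so the groups overlap and the difference was -0.02 ± 0.38 (SE). Position 12 read 2.67, 3.31, 2.67 and 2.77 on arrays labelled induced and 6.44, 5.97, 5.56 and 5.21 on arrays labelled uninduced, a difference of -2.94 ± 0.24 with no overlap but with arrays labelled induced under the level. Position 21 had the lowest difference as measured. There arrays labelled induced read 2.78, 2.53, 2.73 and 2.62 and arrays labelled uninduced read 9.68, 10.03, 10.51 and 10.55. The difference of -7.53 ± 0.20 has a side under the level, so arrays labelled induced were at least 30.7-fold lower. Means over successive stretches were -5.20 for positions 12 to 29, -4.47 for 30 to 47 and -3.90 for 48 to 65, but 16, 14 and 13 of the 18 means of arrays labelled induced in them were under the level, so no trend along the gene was read from them. At the last position, 65, the difference was -1.16 ± 0.16.

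Of the 54 probe sets past the step of COL12A1, 53 were lower by at least 1 log2 unit with no overlap. The exception was position 56, which averaged 6.64 in arrays labelled induced and 7.15 in arrays labelled uninduced, a difference of -0.51 ± 0.28 with overlapping groups. In arrays labelled induced 43 of the 54 means were under the olfactory receptor level, and in arrays labelled uninduced 0 were, so for most of this stretch the dim group sits where the array no longer resolves levels. Before the step, positions 3, 4, 5, 6 and 8 were under that level in both groups. Of those 5, position 5 showed the lowest value of the start side at -1.01 ± 0.47, with overlapping groups, and the rest lay within 0.6 log2 units of 0. The start side of COL12A1 therefore rests on few measurable probe sets: 6 of 11 means in arrays labelled induced and 5 of 11 in arrays labelled uninduced were above the level. Against a stricter level of 6.50, taken from 13 multi-exon genes of other tissues after the data were seen, 1 of 11 was above in each group, so the likeness of the groups on this side is mostly that of dim values.

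On chromosome 6 the nearest measured neighbour on the end side of COL12A1 was CD109, a membrane protein of the alpha-2-macroglobulin family. CD109 fell to 3.41 ± 0.04 log2 units in arrays labelled induced, against 7.75 ± 0.20 in arrays labelled uninduced (SD, n = 4 each), a difference of -4.35 ± 0.10 (SE; limma adjusted p = 7.4e-11). The other neighbours moved less. COX7A2, a respiratory chain subunit on the start side, differed by -0.50 ± 0.10 (limma adjusted p = 0.0020), TMEM30A by 0.40 ± 0.08 (limma adjusted p = 0.0020), and SLC17A5, beyond CD109, by -0.20 ± 0.09 (limma adjusted p = 0.10).

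TRIO showed opposite directions on the sides of its step. Over positions 1 to 16 the mean was 9.50, 9.43, 9.13 and 9.20 log2 units on arrays labelled induced and 8.66, 8.64, 8.35 and 8.10 on arrays labelled uninduced. Every array labelled induced lay above every array labelled uninduced, and the difference was 0.88, or 1.84-fold higher (SD over pairs 0.15). Over positions 17 to 61 the mean was 9.38, 9.34, 9.04 and 9.08 on arrays labelled induced and 10.58, 10.50, 10.33 and 10.27 on arrays labelled uninduced. Here every array labelled induced lay below, and the difference was -1.21, or 2.32-fold lower (SD over pairs 0.06). The step was placed after position 16 in all 4 pairs, and this split held 91.2% of the variation between positions.

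At the step itself TRIO changed sign between adjacent probe sets. Position 16 read 10.40, 10.42, 9.81 and 10.05 on arrays labelled induced and 9.55, 9.53, 9.15 and 9.05 on arrays labelled uninduced, a difference of 0.85 ± 0.14. Position 17 read 9.87, 10.28, 9.84 and 10.03 on arrays labelled induced and 11.42, 11.36, 10.97 and 10.83 on arrays labelled uninduced, a difference of -1.14 ± 0.17. The groups do not overlap at either position. All 16 probe sets of the start side had differences above 0, and 14 were higher in every pair; 5 reached 1 log2 unit, at positions 1, 3, 7, 13 and 14, the highest being 1.31 ± 0.29 at position 13. The groups overlapped at positions 2, 6, 8 and 10, and the smallest difference of that side was 0.31 ± 0.20 at position 6.

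All 45 probe sets on the end side of TRIO were lower in each of the 4 pairs, and 36 of them by at least 1 log2 unit. The groups did not overlap at 43 of the 45, the exceptions being positions 50 and 58. The largest difference was -1.83 ± 0.16 at position 21, where arrays labelled induced read 9.49, 8.89, 9.14 and 9.15 and arrays labelled uninduced read 11.15, 11.07, 10.93 and 10.83. Means over successive stretches were -1.45 for positions 17 to 31, -1.19 for 32 to 46 and -0.99 for 47 to 61. Every probe set of TRIO was above the olfactory receptor level in both groups, so unlike in the other genes no value of TRIO is a dim limit. The gene-level summary, which merges both sides, read 9.39, 9.37, 9.11 and 9.19 on arrays labelled induced and 10.24, 10.19, 10.02 and 9.96 on arrays labelled uninduced, a difference of -0.84 that hides the higher start side.

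**Figure D2:**
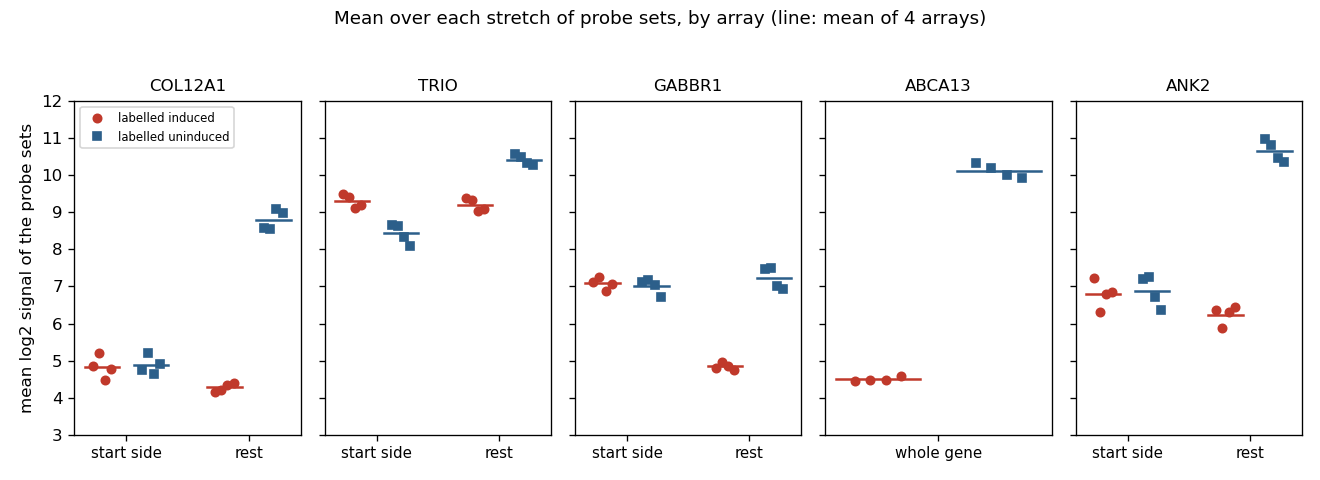
Mean log2 signal over the probe sets before the step (start side) and past it (rest) on each array, or over all 59 probe sets of ABCA13; circles are arrays labelled induced, squares arrays labelled uninduced and lines the means of 4 arrays. The groups are apart past the step of each gene and along ABCA13, and before the step only in TRIO.

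Among neighbours of TRIO on chromosome 5, OTULIN, a deubiquitinase for linear ubiquitin chains on the end side, was lower in arrays labelled induced by 0.45 log2 units (-0.45 ± 0.09, limma adjusted p = 0.0021). OTULINL, which lies between them, averaged 3.88 in arrays labelled induced and 5.34 in arrays labelled uninduced (difference -1.46 ± 0.12) but was under the filter and not tested. On the start side CTNND2, a delta-catenin, averaged 5.58 in arrays labelled induced and 5.31 in arrays labelled uninduced (difference 0.27 ± 0.10, limma adjusted p = 0.038), a call that was lost in 5 of 8 fits without 1 array and with a replicate block. DNAH5 averaged 3.88 in arrays labelled induced and 3.94 in arrays labelled uninduced and was not tested.

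On average GABBR1 was alike in the groups over its first 6 probe sets, and it was lower in arrays labelled induced over most of the other 23. Over positions 1 to 6 the mean was 7.13, 7.26, 6.87 and 7.06 log2 units on arrays labelled induced and 7.12, 7.17, 7.03 and 6.71 on arrays labelled uninduced. The arrays interleave, and the difference was 0.08. Single positions ran from -0.39 at position 4 to 0.68 at position 5. Over positions 7 to 29 the mean was 4.80, 4.97, 4.87 and 4.73 on arrays labelled induced and 7.47, 7.50, 7.01 and 6.92 on arrays labelled uninduced. All arrays labelled induced lay below, with a difference of -2.38 (SD over pairs 0.26), or at least 3.25-fold lower. The drop was placed after position 6 in all 4 pairs, but the split held only 31.7% of the variation between positions.

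The end side of GABBR1 was uneven. Position 6 read 6.98, 6.82, 6.98 and 7.56 on arrays labelled induced and 6.84, 6.56, 6.91 and 6.13 on arrays labelled uninduced, and position 7 read 5.01, 3.87, 4.44 and 4.95 on arrays labelled induced and 6.64, 7.02, 5.80 and 7.26 on arrays labelled uninduced. The difference went with that from 0.47 ± 0.25 to -2.11 ± 0.40 between adjacent probe sets. The lowest value was -4.69 ± 0.22 at position 12, with 5.11, 4.53, 5.01 and 4.28 on arrays labelled induced and 9.86, 9.91, 9.23 and 8.71 on arrays labelled uninduced. Arrays labelled induced are under the level there, so they were at least 18.0-fold lower. In all, 17 of the 23 were lower by at least 1 log2 unit with no overlap. The other 6, at positions 16, 20, 21, 24, 26 and 29, lay within 0.5 log2 units of 0 with overlapping groups. Of these, positions 21 and 29 were under the olfactory receptor level in both groups, but positions 20 and 26 were not: position 26 averaged 8.03 in arrays labelled induced and 8.14 in arrays labelled uninduced. Lower probe sets and ones with a difference near 0 alternate toward the end of GABBR1. The mean difference was -3.68 over positions 7 to 14, -1.84 over 15 to 22 and -1.52 over 23 to 29. In these stretches 8 of 8, 4 of 8 and 4 of 7 means of arrays labelled induced were under the olfactory receptor level. With values under the level set at it, the differences were -2.38, -1.26 and -1.41, so no trend along the gene was read from them.

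The neighbours of GABBR1 on chromosome 6 did not pass the test. SNORD32B, a small nucleolar RNA, differed by -0.16 ± 0.08 (limma adjusted p = 0.13) and OR2H2, an olfactory receptor gene, by -0.01 ± 0.09 (limma adjusted p = 0.91). MOG, ZFP57 and UBD, with means from 4.46 to 4.68 in both groups, were under the filter. The probe sets that carry both symbols, UBD and GABBR1, were dim in both groups, with differences of 0.15 and 0.19.

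ABCA13 had no step, and all 59 of its probe sets were lower in arrays labelled induced without overlap. The mean over the gene was 4.45, 4.47, 4.48 and 4.58 log2 units on arrays labelled induced and 10.32, 10.20, 10.02 and 9.92 on arrays labelled uninduced. The difference of the means was -5.62 (SD over pairs 0.23), and arrays labelled induced were at least 24.0-fold lower. At position 3, which had the lowest difference as measured, arrays labelled induced read 2.42, 3.62, 3.38 and 2.36 and arrays labelled uninduced read 12.20, 12.26, 11.94 and 11.92. The difference was -9.14 ± 0.33, and arrays labelled induced, which are under the level, were at least 113-fold lower. The smallest difference was -1.53 ± 0.30 at position 46, with 6.87, 7.28, 6.06 and 7.45 on arrays labelled induced and 8.08, 8.56, 8.78 and 8.35 on arrays labelled uninduced. Even there the groups do not overlap.

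The unevenness that placed ABCA13 among these genes was a matter of size and not of direction. Mean differences were -6.58 over positions 1 to 20, -5.53 over 21 to 40 and -4.71 over 41 to 59. In arrays labelled induced 40 of the 59 means were under the olfactory receptor level, and in arrays labelled uninduced 0 were. Where the dim group is at that level, the size of a difference follows how bright the probe set is in arrays labelled uninduced, so differences in size along ABCA13 were not read as differences between exons. A forced split lay after position 33, held 21.7% of the variation and was placed after positions 18, 33, 33 and 11 in the 4 pairs. Of the neighbours on chromosome 7, only VWC2 was bright enough to test, at 0.12 ± 0.08 (limma adjusted p = 0.25); C7orf57, UPP1 and CDC14C averaged from 3.88 to 4.79 in both groups.

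**Figure D3:**
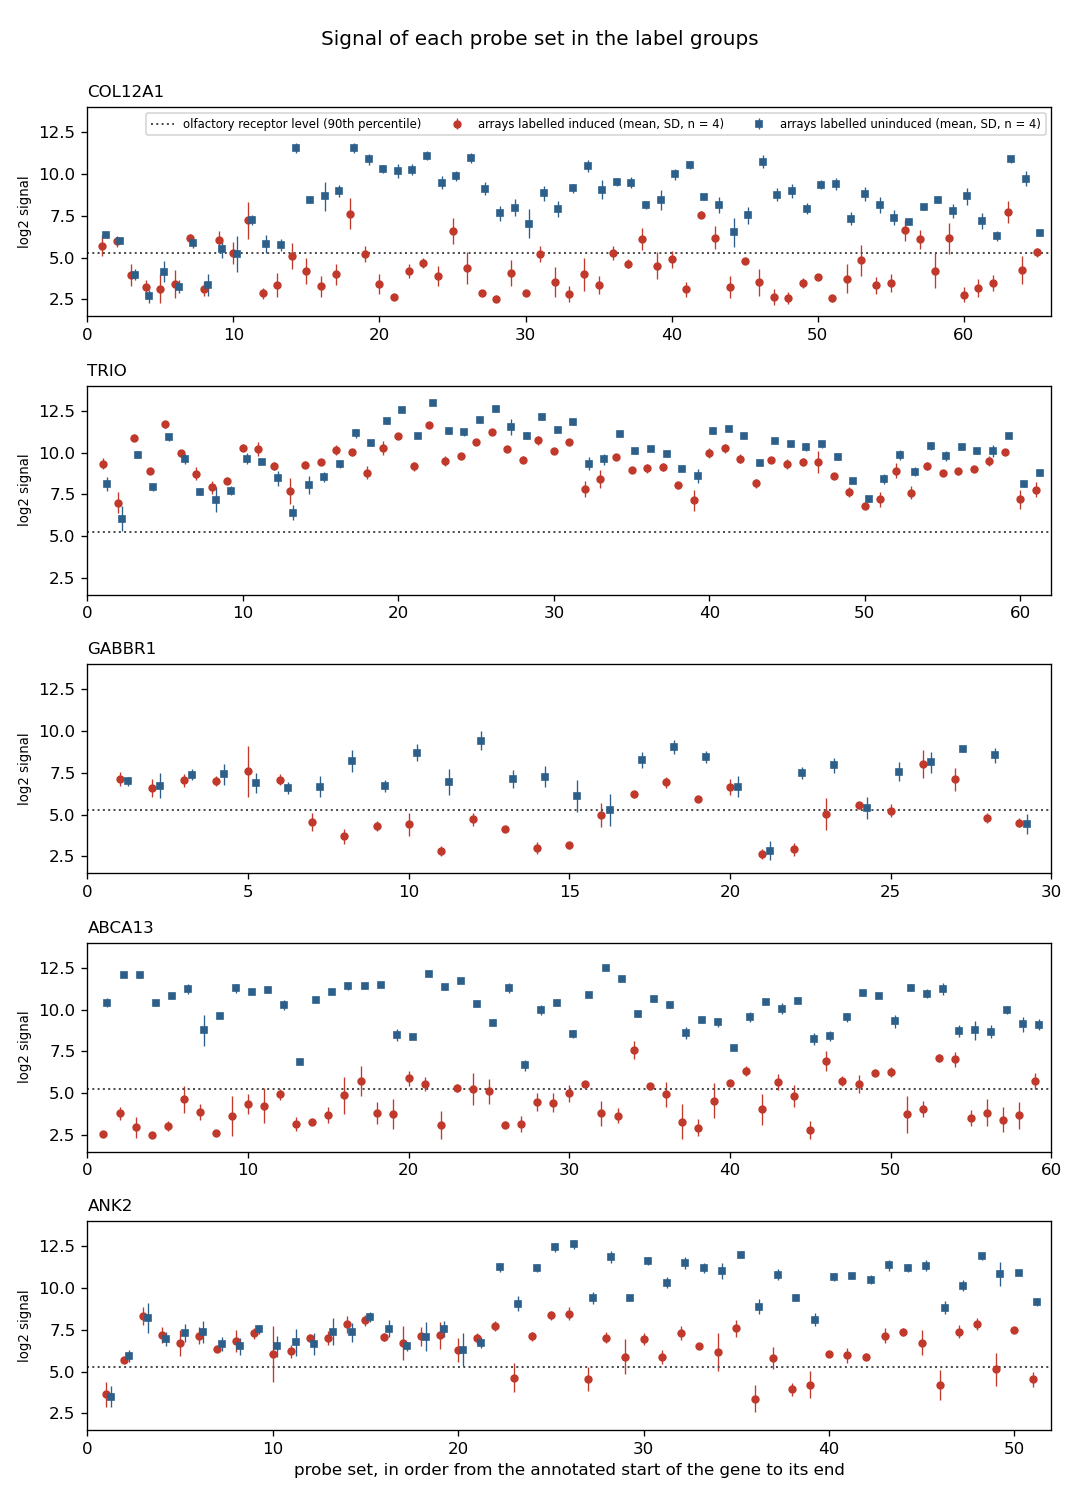
Mean log2 signal with SD (n = 4) of each probe set in arrays labelled induced (circles) and uninduced (squares), in order from the annotated start of each gene; the dotted line is the olfactory receptor level of 5.25. TRIO stays above the line in both groups, while arrays labelled induced lie under it at 43 of 54 positions past the step of COL12A1 and at 40 of 59 positions of ABCA13.

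ANK2 had the step with the largest share of variation of the 5 genes. Over positions 1 to 21 the mean was 7.23, 6.32, 6.81 and 6.84 log2 units on arrays labelled induced and 7.21, 7.27, 6.71 and 6.37 on arrays labelled uninduced. The groups overlap here at all 21 positions, and the difference of the means was -0.09. The second array labelled induced, with code B_1 and number 4, was the lowest, 0.95 below the array labelled uninduced with the same codes. Over positions 22 to 51 the mean was 6.36, 5.88, 6.30 and 6.43 on arrays labelled induced and 10.98, 10.81, 10.47 and 10.35 on arrays labelled uninduced. That is a difference of -4.41 (SD over pairs 0.45), or at least 17.5-fold lower, and all 30 probe sets were lower by at least 1 log2 unit without overlap. The step was placed after position 21 in all 4 pairs and held 94.3% of the variation between positions.

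Past the step ANK2 was evenly lower. Position 21 read 7.18, 6.80, 6.62 and 7.37 on arrays labelled induced and 6.62, 7.16, 6.45 and 6.72 on arrays labelled uninduced, a difference of 0.25 ± 0.22. Position 22 read 7.77, 7.33, 7.90 and 7.92 on arrays labelled induced and 11.47, 11.44, 11.03 and 11.02 on arrays labelled uninduced, a difference of -3.51 ± 0.21. The groups overlap at the first of these and are over 3 log2 units apart at the next. Differences past the step ran from -5.70 ± 0.55 at position 49 to -2.75 ± 0.14 at position 47, with means of -4.26, -4.73 and -4.24 over positions 22 to 31, 32 to 41 and 42 to 51. In arrays labelled induced 22 of the 30 means were above the olfactory receptor level, and 15 of the 30 were above the stricter level of 6.50. On the start side 20 of 21 were above the olfactory receptor level in both groups. The exception was position 1, with means of 3.64 in arrays labelled induced and 3.50 in arrays labelled uninduced.

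CAMK2D, a calcium/calmodulin-dependent kinase on the end side of ANK2 on chromosome 4, fell to 6.86 ± 0.34 log2 units in arrays labelled induced, against 9.23 ± 0.13 in arrays labelled uninduced (SD, n = 4 each). The difference was -2.37 ± 0.14 (SE; limma adjusted p = 1.1e-07), or 5.15-fold lower. ARSJ beyond it averaged 3.83 in arrays labelled induced and 3.80 in arrays labelled uninduced, and the microRNA genes MIR302A and MIR302B on the start side averaged from 2.72 to 2.87, all under the filter. Of the neighbours tested, those with the largest differences thus lay on the end side of COL12A1 and of ANK2.

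**Figure D4:**
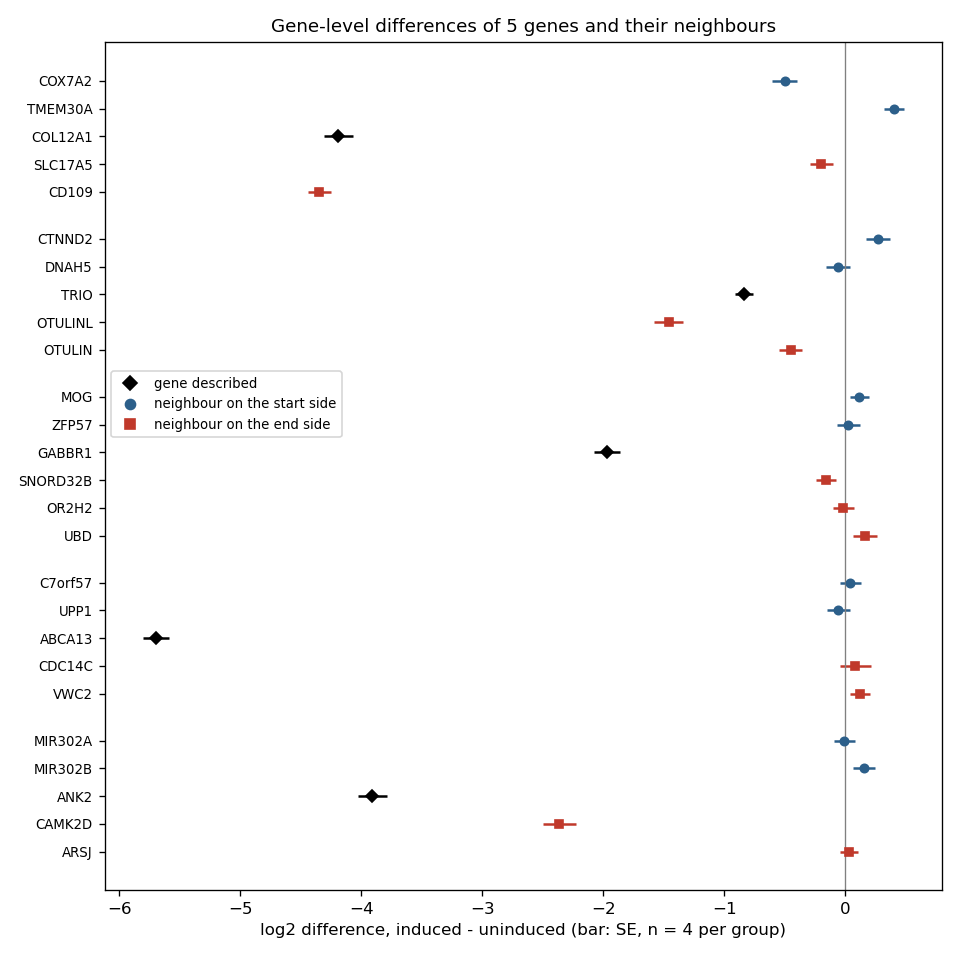
Gene-level log2 difference with SE, arrays labelled induced minus uninduced (n = 4 per group), of the 5 genes (diamonds) and their nearest measured neighbours on the start side (circles) and the end side (squares). CD109 beside COL12A1 at -4.35, CAMK2D beside ANK2 at -2.37 and OTULINL beside TRIO at -1.46 stand away from 0, and the measured neighbours of ABCA13 and GABBR1 lie within 0.2 of it.

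A step inside a gene is a statement on probe sets, not on transcripts. The start side of TRIO was above the olfactory receptor level in both groups at all 16 positions, that of GABBR1 at all 6 and that of ANK2 at 20 of 21, and most of the start side of COL12A1 was dim in both. Against the stricter level of 6.50, 15 of 21 start-side means of ANK2 in arrays labelled induced and 18 in arrays labelled uninduced were above it. In COL12A1, TRIO and ANK2 the place of the step leaves the end-side probe sets, which include those nearest the annotated end, on the side that differed. In GABBR1 most end-side probe sets differed, but the last, position 29, was dim with overlapping groups. It averaged 4.51 in arrays labelled induced and 4.41 in arrays labelled uninduced. In COL12A1, GABBR1 and ANK2, an alternative start inside the gene in arrays labelled uninduced would leave the start side alike and the end side different. An alternative end inside the gene in arrays labelled induced would give the same order of differences. The array reads neither junctions nor transcript ends. In arrays labelled uninduced the start and end sides averaged 4.88 and 8.80 in COL12A1 and 6.89 and 10.65 in ANK2. In GABBR1 they averaged 7.01 and 7.23. In arrays labelled induced these sides averaged 4.83 and 4.28 in COL12A1, 6.80 and 6.24 in ANK2, and 7.08 and 4.84 in GABBR1. Which of these transcript forms was present was not tested. In TRIO the start side was also higher in arrays labelled induced, by 0.88 log2 units, and how this arose was not tested. In ABCA13 the difference covered positions 1 to 59, so no shift of a start or an end was seen. In GABBR1 positions 20 and 26, above 6.50 in both groups, lie between lower ones but had overlapping groups. Their differences were 0.00 ± 0.36 and -0.10 ± 0.47 (SE), too imprecise to call the groups equal. At position 26 the label difference in number 4 minus that in 1 was -2.12 ± 0.49, not passing after adjustment. The other 4 positions near 0 are too dim to add to this. Which exons lie at the steps was not analysed here, since the tables hold no exon positions.

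The code and the number gave comparisons that the choice of these genes had not used. Of 254 probe sets past the filter, 0 passed at a limma adjusted p under 0.05 for B_4 against B_1, and 0 passed for number 4 against 1, with lowest adjusted p of 0.67 and 0.87; of all 193072 probe sets 0% passed for either. At an unadjusted p under 0.05 there were 42 for the code, against 7.26% of all probe sets, and 11 for the number, against 5.57%. In shares these are 16.5% and 4.33% of the 254, and members of a gene share its transcript, so they are not independent of each other. COL12A1 ran the other way from the rest in the code: its median difference, B_4 minus B_1, was 0.32 over 58 probe sets, while those of TRIO, GABBR1, ABCA13 and ANK2 were -0.26, -0.24, -0.12 and -0.19. All 61 values of TRIO were below 0, from -0.84 to -0.02.

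Whether the label difference itself varied with the code or the number was tested by interaction. For the code 0 of 254 passed, with 30 at an unadjusted p under 0.05, or 11.8% against 7.47% of all probe sets, and the lowest limma adjusted p was 0.65. For the number 0 passed, with 7 at an unadjusted p under 0.05, or 2.76% against 4% of all, and no limma adjusted p was clearly below 1. The lowest p for the number was at position 26 of GABBR1. There the label difference in number 4 minus that in 1 was -2.12 ± 0.49 (limma unadjusted p = 0.0051, not passing after adjustment). ANK2 had 11 of 50 at the code and GABBR1 6 of 26. The median of ANK2 was 0.83 on its start side, which has no drop, and 0.58 past the step, so the value was not particular to the stretch that differed. Position 49 of ANK2 had the lowest p for the code: the drop was 2.57 ± 0.52 log2 units smaller in B_4 (limma unadjusted p = 0.0028, and not passing after adjustment). That position read 4.67, 4.01, 5.75 and 6.12 on arrays labelled induced and 11.86, 10.79, 10.44 and 10.26 on arrays labelled uninduced, where the first 2 of each are B_1. These interaction fits leave few degrees of freedom, and a difference that misses the threshold in them is not shown to be absent.

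Uneven exon usage by the code or the number was not called in any of the 5 genes by limma's diffSplice F test, which called 0.122% and 0.054% of 14807 genes, while it called 40.4% by label. COL12A1 came nearest for the code, with F = 1.42 over 58 probe sets, an unadjusted limma p of 0.038 and an adjusted p of 0.74. Simes' form of the test called 229 and 243 genes in all and none of the 5.

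Relatives and partners of the 5 genes did not move as a block. Of 61 measured genes in 6 lists, 39 could be tested at gene level, and limma called 6 higher and 14 lower in arrays labelled induced, against 27.1% higher and 28.3% lower of all tested genes. The median difference over all tested genes was 0.02. Exon usage by label was called in 31 of 54 relatives with enough probe sets, against 40.4% of all genes.

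Among the collagens related to COL12A1, 3 of 7 tested were lower and 0 higher, with a median of -0.02. COL19A1, another collagen of this fibril-associated class, fell to 4.96 ± 0.06 in arrays labelled induced, against 8.85 ± 0.16 in arrays labelled uninduced (SD, n = 4 each; difference -3.88 ± 0.09 SE, limma adjusted p = 1.2e-10). COL9A2 and COL22A1, of the same class, differed by -0.43 ± 0.11 and -0.40 ± 0.10 (limma adjusted p = 0.0081 and 0.0045). Of collagen I and its partners, FMOD, which encodes the fibril-binding proteoglycan fibromodulin, was 4.60-fold lower (-2.20 ± 0.18, limma adjusted p = 2.0e-06), and the collagen I chain genes COL1A1 and COL1A2 differed by -0.04 ± 0.09 and -0.06 ± 0.08 and did not pass. Fibroblast markers went with neither direction: of 5 tested, PDGFRB was higher and FAP lower, while the matrix proteoglycan genes DCN and LUM were between 3.2 and 3.4 in both groups, under the filter. FAP, a surface protease, averaged 3.29 in arrays labelled induced and 8.56 in arrays labelled uninduced. The mean of the 8 fibroblast markers ran from 4.68 to 4.78 on arrays labelled induced and from 5.18 to 5.30 on arrays labelled uninduced. That gap rests largely on FAP, at -5.27 ± 0.17, since the median difference of the 8 was 0.02. Its part in the COL12A1 difference was not tested.

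Of 11 tested relatives and partners of TRIO, 3 were higher and 4 lower, with a median of 0.06. VAV2, another guanine nucleotide exchange factor, rose to 8.71 ± 0.07 in arrays labelled induced, against 6.67 ± 0.11 in arrays labelled uninduced (SD, n = 4 each; difference 2.03 ± 0.09 SE, limma adjusted p = 1.2e-08). Of the GTPases that TRIO acts on, RAC1 fell by 1.06 log2 units (-1.06 ± 0.09), RHOG rose by 0.80 ± 0.08, and RHOA did not pass at 0.14 ± 0.07 (limma adjusted p = 0.16). TIAM1, a RAC1 exchange factor, fell by 0.96 (-0.96 ± 0.12), and PTPRF, the LAR phosphatase that TRIO was found to bind, by 0.84 (-0.84 ± 0.10). KALRN, the closest paralog of TRIO, did not pass at 0.06 ± 0.09.

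Of 17 measured GABA receptor and GABA metabolism genes, 10 were under the filter, GABBR2, the partner subunit of GABBR1, among them with 4.65 in arrays labelled induced and 4.69 in arrays labelled uninduced. Of the 7 tested, 2 were higher and 1 lower. GAD1, which makes GABA from glutamate, averaged 4.30 in arrays labelled induced and 6.28 in arrays labelled uninduced (difference -1.98 ± 0.14 SE, limma adjusted p = 5.3e-07). GABRB2, a subunit of the GABA-A receptor, was higher by 0.85 ± 0.09 and ABAT, which breaks GABA down, by 0.56 ± 0.09. Neuronal markers, set beside GABBR1 and ANK2, had 2 of 4 tested lower and 0 higher, with a median of -0.39 over the 4 tested and 0.15 over all 6 measured. SNAP25, of the synaptic fusion machinery, averaged 4.79 in arrays labelled induced and 8.85 in arrays labelled uninduced, and GAP43 differed by -0.90 ± 0.13. SYT1, a synaptic vesicle calcium sensor under the filter, averaged 4.97 in arrays labelled induced and 3.53 in arrays labelled uninduced. The mean of the 6 neuronal markers ran from 4.95 to 5.11 on arrays labelled induced and from 5.38 to 5.59 on arrays labelled uninduced. That gap rests largely on SNAP25, at -4.06 ± 0.22, and its part was not tested.

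In the ABCA family 7 of 11 measured genes were under the filter and all 4 tested passed. ABCA5, ABCA2 and ABCA3, transporters of intracellular membranes, differed by -1.29 ± 0.15, -1.07 ± 0.10 and -1.02 ± 0.12, lower in arrays labelled induced, and ABCA7 was higher by 1.01 ± 0.10. Of 7 tested ankyrin and spectrin genes, 2 were lower and 0 higher. SPTBN1, the beta spectrin that ankyrin-B binds, fell to 5.18 in arrays labelled induced, against 7.14 in arrays labelled uninduced (difference -1.96 ± 0.09 SE, limma adjusted p = 1.5e-08), and SPTB, the erythroid beta spectrin, fell by 0.86 log2 units (-0.86 ± 0.12). ANK3, the paralog of ANK2, averaged 3.86 in arrays labelled induced and 5.46 in arrays labelled uninduced but was under the filter and not tested, and ANK1 did not pass at -0.04 ± 0.08. Epithelial markers moved both ways, with 2 of 4 tested higher and 1 lower; CDH1 averaged 7.95 in arrays labelled induced and 5.63 in arrays labelled uninduced, and the mean of the 5 ran from 6.39 to 6.56 on arrays labelled induced and from 5.82 to 6.13 on arrays labelled uninduced.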

How the data were processed

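The authors' deposited values are log2 signals, made with RMA and Partek per the submitters' processing notes; no version, build or filter is named there, and base 2 is assumed because RMA normally reports it. RMA equalises the arrays and compresses dim signals, so folds against dim values are understated. The exon-level and gene-level tables are summaries of the same 8 arrays: 4428 of 4428 shared features had identical values. Their medians ran from 6.51 to 6.59 at exon level and from 5.79 to 5.88 at gene level. The number of arrays limits the precision, and no scan date or slide was used here.

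Limma 3.58.1 in R 4.3.3 fitted code, number and label (residual degrees of freedom 4), with Benjamini-Hochberg adjustment over all 193072 exon-level probe sets or 13813 genes whose mean reached the 25th percentile; interactions had separate fits. A gene was represented by its highest-mean probe set. DiffSplice tested exon usage with 3 or more probe sets a gene; on simulated data it also called some genes that had not been changed, so its counts may be high. Genes were named from GEO's platform annotation, with symbols updated through the RefSeq table of GRCh38.p14, which also gave neighbours and promoter windows; no exon coordinates were used.

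The members and gene lists were chosen with earlier results of these data known. Named were, per gene, the probe sets with the extreme differences, at the step and at background; of each related list at most 4 passing genes with the largest difference; all neighbours; and the 3 genes most like each gene. Markers, RHOG, RHOA, KALRN, GABBR2, ANK1 and ANK3 were named after their values were seen.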

Additional observations from a re-analysis of the deposited data

How the results depend on the processing

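The directions below held under every alternative run: quantile normalisation, median centring, another filter, other background levels and leaving out each array. The mean difference over all probe sets of a gene, main value against the leave-one-out range, was -3.77 (-3.81 to -3.71) for COL12A1, -0.66 (-0.69 to -0.64) for TRIO, -1.87 (-1.95 to -1.79) for GABBR1, -5.62 (-5.69 to -5.55) for ABCA13 and -2.63 (-2.80 to -2.43) for ANK2. A median in place of the mean gave -4.04, -1.14 and -2.11 for COL12A1, TRIO and GABBR1 and -3.82 for ANK2. The gene-level probe set gave -4.19, -0.84 and -3.91 for COL12A1, TRIO and ANK2, and leaving out probe sets at background gave -4.07 for COL12A1; each of these weights the stretches differently. Setting values under the olfactory receptor level at it, an alternative added after seeing the data, gave -2.72 for COL12A1, -1.33 for GABBR1 and -4.59 for ABCA13. The step kept its place after positions 11, 16, 6 and 21 of COL12A1, TRIO, GABBR1 and ANK2 in all 8 fits without 1 array. The split of ABCA13 moved from 33 to 18 without the second array labelled uninduced, the second labelled induced or the third labelled induced.

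Probe sets at background in both groups depended on the level. With the 90th percentile of 524 probe sets of 13 multi-exon genes taken as silent, 6.50 log2 units, chosen after seeing the data, there were 14 of COL12A1, 10 of them on its start side, 5 of GABBR1 and 3 of ANK2, and with the 75th percentile of olfactory receptors 1 of GABBR1. A median filter called 10 of the related genes instead of 20, because fewer entered the test, and leaving out 1 array gave 20 to 21; exon usage in them was called 27 to 33 times.

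Arrays that share code and number did not deviate together (correlations 0.03, -0.04, 0.01 and -0.01), so they were not taken as pairs in the main fits. The pairs named above serve for description only. With a replicate block the mean differences were the same, 0 interactions passed, and 20 related genes and 29 exon usage calls were made. CTNND2 lost its call with the block (difference 0.27) and in 5 fits without 1 array (0.17 to 0.28). Of the other neighbours and the related genes named for the largest differences, none lost its call where it was tested. Calls of RHOG and of the markers were not followed gene by gene in the alternatives. The code, number and interaction tests called 0 probe sets in all alternatives.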

Other observations

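The genes whose gene-level values lay nearest to each of these genes over the 8 arrays were P4HA2, CRISPLD1 and TBC1D4 for COL12A1, ZNF615, ABCB10 and DPYSL2 for TRIO, LAMP3, AFAP1 and PPP1R26 for GABBR1, SULF1, AHNAK and IL13RA1 for ABCA13, and ZSWIM6, GALNT7 and PTPRG for ANK2. The likeness was measured by Pearson's r and mostly repeats the gap between the labels, so many genes score nearly alike and no value is given for it.

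The 3 gene-level probe sets of GABBR1 gave the same direction. The one described above read 5.46, 5.70, 5.42 and 5.62 log2 units on arrays labelled induced and 7.60, 7.99, 7.11 and 7.38 on arrays labelled uninduced. Another read 4.53, 4.79, 4.62 and 4.65 on arrays labelled induced and 7.13, 7.44, 6.63 and 6.81 on arrays labelled uninduced. As most of their exon-level values are identical copies, they are no further replicates.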
